A study of Homo sapiens with 6 samples.

Results

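The 10 genes described here, MT-ND1, MT-ND2, MT-ND3, MT-ND4, MT-ND5, MT-CYB, MT-CO1, MT-CO2, MT-CO3 and MT-ATP6, are protein genes of the human mitochondrial chromosome. They were taken by symbol from a table of 58735 gene rows, 37 of which lie on that chromosome. Those 37 rows are 13 protein genes, 2 ribosomal RNA genes and 22 transfer RNA genes, and the 3 protein genes outside the 10 are MT-ATP8, MT-ND4L and MT-ND6. All 10 passed the filter on low values described below, which 12128 rows passed in all.

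The cells were MDA-MB-231, a human line from a basal-like breast cancer, carrying a non-targeting shRNA (shSCR). In the sample labels the libraries are named SCR and the genotype is given as WT. One group of 3 libraries came from cells at 0 Gy, and the other group of 3 came from cells given 10 Gy of gamma rays from a caesium source and collected 24 h later. All libraries were made from polyadenylated RNA of this 1 line, and no source says that the 3 libraries of a dose came from separate cultures, so p-values measure only the spread between these libraries. The comparison asks how RNA levels 24 h after irradiation differ from those of cells that were not irradiated.

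Mitochondrial DNA is a small circular chromosome that is present in many copies per cell. Its 2 strands are each transcribed as long precursors, and the RNAs are released mainly by cutting out the transfer RNAs that lie between them. The messenger RNAs then receive short poly(A) tails and are translated inside the organelle. The proteins they encode are core membrane subunits of the respiratory chain and of ATP synthase, while the other subunits of these complexes, the polymerase and the ribosomal proteins are made from nuclear genes. Oxidative phosphorylation therefore needs the products of both genomes. In bulk libraries, fewer mitochondrial genomes, less RNA per genome and fewer cells with a given level cannot be told apart.

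All 10 genes lie on the plus strand of chromosome MT in GRCh38, each with 1 exon, and the coordinates in the table equal those of GENCODE release 29 for 10 of 10. The genes are packed so closely that some reading frames stop short of a full stop codon, which polyadenylation of the cut messenger RNA completes. The last 30 bases of each gene are shown because they hold the end of each reading frame, full or incomplete. They were read from the GENCODE transcripts, 5′ to 3′. The capitals mark the closing letters, either the full last codon or the T or TA left after the last full codon. Of the 10 genes, 6 end in such an incomplete codon and 4 in a full one.
MT-ND1: tacaatctccagcattccccctcaaaccTA
MT-ND2: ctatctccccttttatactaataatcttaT
MT-CO1: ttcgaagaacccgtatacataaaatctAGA
MT-CO2: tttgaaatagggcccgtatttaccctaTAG
MT-ATP6: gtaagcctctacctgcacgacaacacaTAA
MT-CO3: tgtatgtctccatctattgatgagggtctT
MT-ND3: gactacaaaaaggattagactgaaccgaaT
MT-ND4: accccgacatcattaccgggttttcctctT
MT-ND5: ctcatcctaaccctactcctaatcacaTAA
MT-CYB: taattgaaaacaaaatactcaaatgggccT
The full codons are TAG in MT-CO2, TAA in MT-ATP6 and MT-ND5, and AGA in MT-CO1, a codon for arginine in the nuclear code. A single T closes MT-ND2, MT-CO3, MT-ND3, MT-ND4 and MT-CYB, and TA closes MT-ND1. The first codon is ATG in MT-CO1, MT-CO2, MT-CO3, MT-ATP6, MT-ND4 and MT-CYB, ATA in MT-ND1, MT-ND3 and MT-ND5, and ATT in MT-ND2. The gene lengths run from 346 bases in MT-ND3 to 1812 bases in MT-ND5.

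These genes were among the most abundant RNAs of the libraries. Levels are given in FPKM (fragments per kilobase of gene, scaled to sequencing depth), so that genes of different length can be compared. The mean at 0 Gy ran from 614 FPKM for MT-ND5 to 3809 FPKM for MT-CO1, a 6.20-fold range, where the median of all 12128 tested rows was 7.11 FPKM. Over all rows and libraries, the 10 genes held ranks between 1 and 56. Reads recovered from the FPKM, the gene lengths and the depth numbered 10280 to 144866 per gene and library.

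The order of mean levels at 0 Gy was MT-CO1, MT-CO2, MT-CO3, MT-ATP6, MT-ND3, MT-ND4, MT-ND2, MT-ND1, MT-CYB and MT-ND5, from highest to lowest. The 3 cytochrome c oxidase genes and MT-ATP6 were thus above the complex I genes and MT-CYB. Of neighbours in this order, the ranges over the 3 libraries were separate for MT-CO2 and MT-CO3, for MT-ATP6 and MT-ND3, for MT-ND3 and MT-ND4, and for MT-ND1 and MT-CYB. The other neighbours overlapped. The order of means at 10 Gy was the same, with MT-CO2 at 2383.2 FPKM and MT-CO3 at 2382.9 FPKM, and MT-CO2 above MT-CO3 in 1 of 3 libraries against 3 of 3 at 0 Gy.

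**Figure D1:**
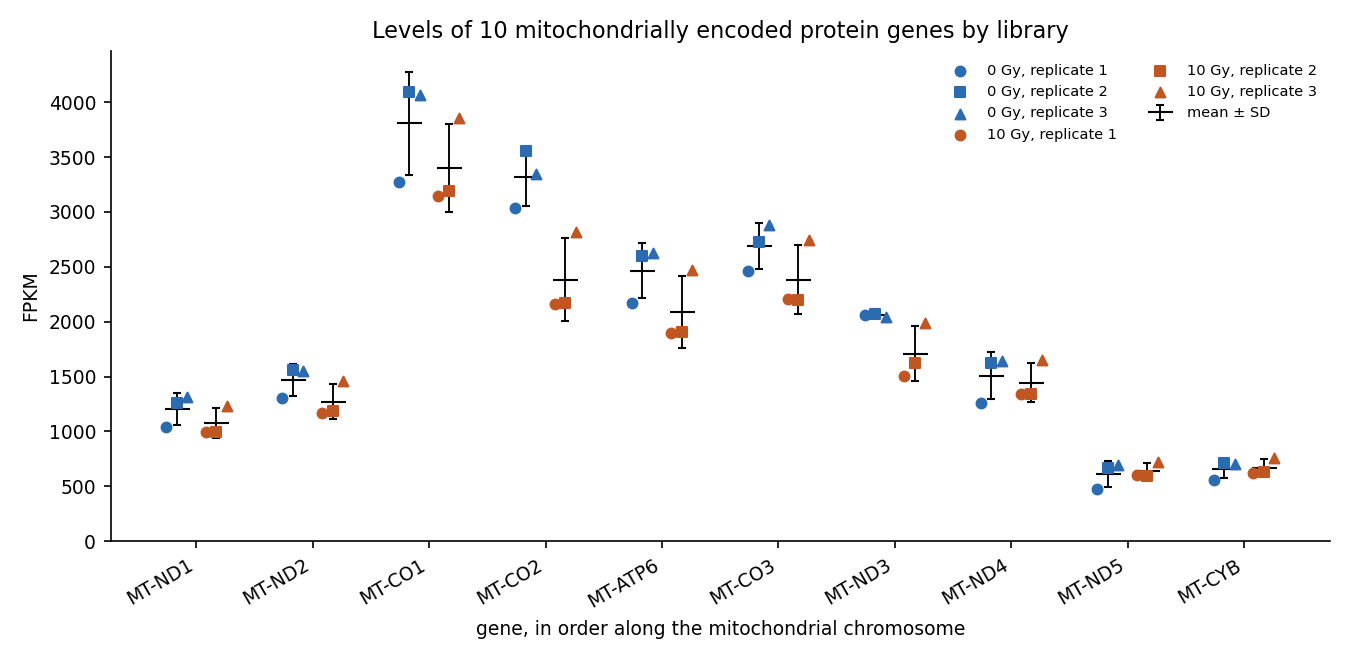
Level in FPKM on the vertical axis of each of the 10 genes, in order along the chromosome, in the 3 libraries at 0 Gy (blue) and the 3 at 10 Gy (orange), with replicate 1 as a circle, 2 as a square and 3 as a triangle. Horizontal bars are means with SD. The circle of 0 Gy replicate 1 is the lowest 0 Gy point in 9 of 10 genes, the triangle of 10 Gy replicate 3 is the highest 10 Gy point in 10 of 10, and the groups are separate for MT-CO2 and MT-ND3.

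Doses were compared with limma on log2(FPKM + 1), and a gene was called at a Benjamini-Hochberg adjusted p under 0.05 over all rows tested. MT-CO2 fell, and it was the only one of the 10 that was called. None was called higher. Over all rows tested the called share was 35.6%, with 23.7% lower and 11.9% higher, and 1 of the 10 was called. The number called among the 10 was 3 without 10 Gy replicate 3, where 26.3% of all rows tested were called, and 0 without 0 Gy replicate 2 or 3 or 10 Gy replicate 1 or 2, where 21.9 to 32.0% were. The log2 change was below 0 for 8 of the 10 genes and above 0 for MT-ND5 and MT-CYB. With values rescaled to TPM, in which every library sums to the same total, MT-ND4 also turned to a log2 change above 0. The median log2 change of the 10 was −0.17, with a range from −0.48 to 0.08, and the median of all rows tested was −0.04. With TPM the median of the 10 was −0.05, with a range from −0.36 to 0.21, and that of all rows tested was 0.07. Without 0 Gy replicate 1 the median of the 10 was −0.27, and without 10 Gy replicate 3 it was −0.28. Every 10 Gy library lay below every 0 Gy library for 2 of the 10 genes, MT-CO2 and MT-ND3, against 32.8% of all rows tested, and the reverse held for 0 of the 10, against 19.1% of all rows.

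Cytochrome c oxidase (complex IV) passes electrons from cytochrome c to oxygen. MT-CO2 carries the copper centre that takes the electrons from cytochrome c, and lies from 7586 to 8269. Its level was 3039, 3557 and 3346 FPKM at 0 Gy and 2160, 2168 and 2821 FPKM at 10 Gy. All 3 irradiated libraries were below all 3 unirradiated ones, although 10 Gy replicate 3 stood well above the other two. The means were 3314 ± 261 FPKM and 2383 ± 379 FPKM (SD, n = 3 each), a fold of 0.715. The log2 change was −0.48 with an SE of 0.12 and an adjusted p of 0.0197 (limma). With 1 library left out the adjusted p was 0.0612 without 0 Gy replicate 2, 0.0514 without 0 Gy replicate 3, 0.0765 without 10 Gy replicate 1 and 0.0767 without 10 Gy replicate 2, so the call rests on each of these libraries, and it was also lost with no filter on low rows (adjusted p = 0.244).

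MT-CO1 holds the haem and copper site where oxygen is reduced, and lies from 5904 to 7445. It was at 3268, 4094 and 4065 FPKM at 0 Gy and at 3142, 3192 and 3858 FPKM at 10 Gy. The groups overlapped, since 0 Gy replicate 1 was close to the lower irradiated libraries and 10 Gy replicate 3 was close to the higher unirradiated ones. Its log2 change was −0.16 with an SE of 0.12 and an adjusted p of 0.328 (limma), and the 95% interval was −0.45 to 0.12. MT-CO3, a core subunit without a metal centre that lies from 9207 to 9990, was at 2463, 2730 and 2881 FPKM at 0 Gy and at 2206, 2198 and 2745 FPKM at 10 Gy. Here too the groups overlapped through those libraries. The log2 change was −0.18 with an SE of 0.11, a 95% interval of −0.43 to 0.07 and an adjusted p of 0.229 (limma).

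ATP synthase (complex V) makes ATP from the proton gradient, and MT-ATP6 encodes the subunit that forms its proton path. MT-ATP6 lies from 8527 to 9207. Its level was 2174, 2597 and 2624 FPKM at 0 Gy and 1895, 1903 and 2471 FPKM at 10 Gy. Of the irradiated libraries, 10 Gy replicate 3 lay within the range of the unirradiated ones. The log2 change was −0.24 with an SE of 0.13, a 95% interval of −0.54 to 0.05 and an adjusted p of 0.169 (limma). Without 10 Gy replicate 3 the log2 change was −0.37 and the adjusted p was 0.0429.

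Complex III passes electrons from ubiquinol to cytochrome c, and its cytochrome b, which binds both b haems, is encoded by MT-CYB. MT-CYB lies from 14747 to 15887. It was at 559, 713 and 705 FPKM at 0 Gy and at 620, 631 and 761 FPKM at 10 Gy, with 0 Gy replicate 1 the lowest library of all and 10 Gy replicate 3 the highest. The log2 change was 0.03 with an SE of 0.12, a 95% interval of −0.25 to 0.30 and an adjusted p of 0.872 (limma).

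Complex I takes electrons from NADH to ubiquinone and pumps protons. Its mitochondrially encoded subunits form the core of the membrane arm, and MT-ND1 lies next to the ubiquinone site. MT-ND1, from 3307 to 4262, was at 1042, 1256 and 1316 FPKM at 0 Gy and at 992, 996 and 1233 FPKM at 10 Gy. MT-ND2, an antiporter-like subunit from 4470 to 5511, was at 1304, 1558 and 1550 FPKM at 0 Gy and at 1169, 1187 and 1459 FPKM at 10 Gy. In both genes only 10 Gy replicate 3 reached into the range of the unirradiated libraries. The log2 changes were −0.17 with an SE of 0.12 for MT-ND1 and −0.21 with an SE of 0.11 for MT-ND2, and the adjusted p-values were 0.299 and 0.167 (limma).

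MT-ND3 is the shortest of the 10 genes and lies from 10059 to 10404. Its level was 2062, 2071 and 2047 FPKM at 0 Gy, an agreement within 1.01-fold, and 1509, 1628 and 1986 FPKM at 10 Gy. It was the only gene in which 0 Gy replicate 1 was not the lowest unirradiated library, and the groups did not overlap. The means were 2060 ± 12.4 FPKM and 1708 ± 248 FPKM (SD, n = 3 each). The log2 change was −0.28 with an SE of 0.10 and an adjusted p of 0.0667 (limma), with an unadjusted p of 0.026 in the same fit. The adjusted p was 0.0478 with a minimum of 5 FPKM, 0.0371 with protein-coding rows alone and 0.0125 without 10 Gy replicate 3.

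MT-ND4 and MT-ND5 encode the other antiporter-like subunits of the membrane arm, with MT-ND5 at its far end. MT-ND4, from 10760 to 12137, was at 1259, 1625 and 1640 FPKM at 0 Gy and at 1341, 1343 and 1648 FPKM at 10 Gy. MT-ND5, from 12337 to 14148, was at 476, 671 and 696 FPKM at 0 Gy and at 606, 598 and 721 FPKM at 10 Gy. In both, 0 Gy replicate 1 was below every other library and 10 Gy replicate 3 was above every other, so the groups overlapped. The log2 change of MT-ND4 was −0.06 with an SE of 0.13, and it was 0.07 with TPM. That of MT-ND5 was 0.08 with an SE of 0.15. The adjusted p-values were 0.743 and 0.710 (limma), and the 95% intervals were −0.36 to 0.24 and −0.27 to 0.43. Without 0 Gy replicate 1, the log2 changes of MT-ND5 and MT-CYB were −0.10 and −0.09, and without 10 Gy replicate 3 they were −0.01 and −0.07, so the direction of these genes rests on those libraries. MT-ND4 was at −0.18 without 0 Gy replicate 1 and at −0.16 without 10 Gy replicate 3, and between −0.01 and 0.01 without any one of the other libraries.

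The share of all recovered reads that fell on the 10 genes was 1.64, 2.01 and 2.03% at 0 Gy and 1.62, 1.64 and 2.01% at 10 Gy. The means were 1.89 ± 0.222% and 1.76 ± 0.216% (SD, n = 3 each). In each dose 1 library stood apart from the other two, low at 0 Gy and high at 10 Gy, and the groups overlapped. The difference of −0.134 percentage points had a two-sided exact permutation p of 0.4, where 3 libraries against 3 cannot go below 0.1. It was −0.262 points without 0 Gy replicate 1 and −0.259 without 10 Gy replicate 3, and it was −0.0752 and −0.0644 without 0 Gy replicates 2 and 3 and −0.0667 and −0.0765 without 10 Gy replicates 1 and 2. All 37 mitochondrial rows together held 2.29 ± 0.266% and 2.11 ± 0.253% of the reads (SD, n = 3 each), with an exact permutation p of 0.2.

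Within a library, the level of one of these genes relative to the others does not depend on how the library was scaled. Each gene was therefore also given as its share of the summed FPKM of the 10. The share of MT-CO2 was 17.2, 17.0 and 16.0% at 0 Gy and 13.8, 13.7 and 14.3% at 10 Gy, so every irradiated library was lower. The means were 16.8 ± 0.640% and 13.9 ± 0.334% (SD, n = 3 each). On this measure 10 Gy replicate 3 lay near the other irradiated libraries and 0 Gy replicate 1 did not lie low among the unirradiated ones.

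Shares of 3 genes were higher in every irradiated library than in every unirradiated one. MT-ND5 went from 2.70, 3.21 and 3.33% to 3.88, 3.77 and 3.66%. MT-CYB went from 3.17, 3.42 and 3.38% to 3.96, 3.98 and 3.86%. MT-ND4 went from 7.13, 7.79 and 7.86% to 8.57, 8.48 and 8.36%. For each of these 3 and for MT-CO2 the two-sided exact permutation p was 0.1, the smallest that the design allows. Shares among the 10 have no counterpart over all rows. FPKM itself was lower in every irradiated library for 32.8% of all rows tested, and higher in every one for 19.1%. The shares of the other 6 genes overlapped between doses, with means at 0 Gy and 10 Gy of 19.2 and 19.9% for MT-CO1 and of 10.5 and 10.0% for MT-ND3.

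Shares in a fixed sum are tied to each other, so a lower MT-CO2 raises the rest. Leaving MT-CO2 out of the sum, a step chosen after these values were seen, MT-ND4, MT-ND5 and MT-CYB were still higher in every irradiated library. MT-ND5 was then at 3.26, 3.87 and 3.97% of the other 9 genes at 0 Gy and at 4.50, 4.37 and 4.27% at 10 Gy. Of those 9 genes, MT-ND2 and MT-ATP6 were lower in every irradiated library. The mean of MT-ATP6 was 15.0% at 0 Gy and 14.2% at 10 Gy, and that of MT-ND2 was 8.92% and 8.67%.

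**Figure D2:**
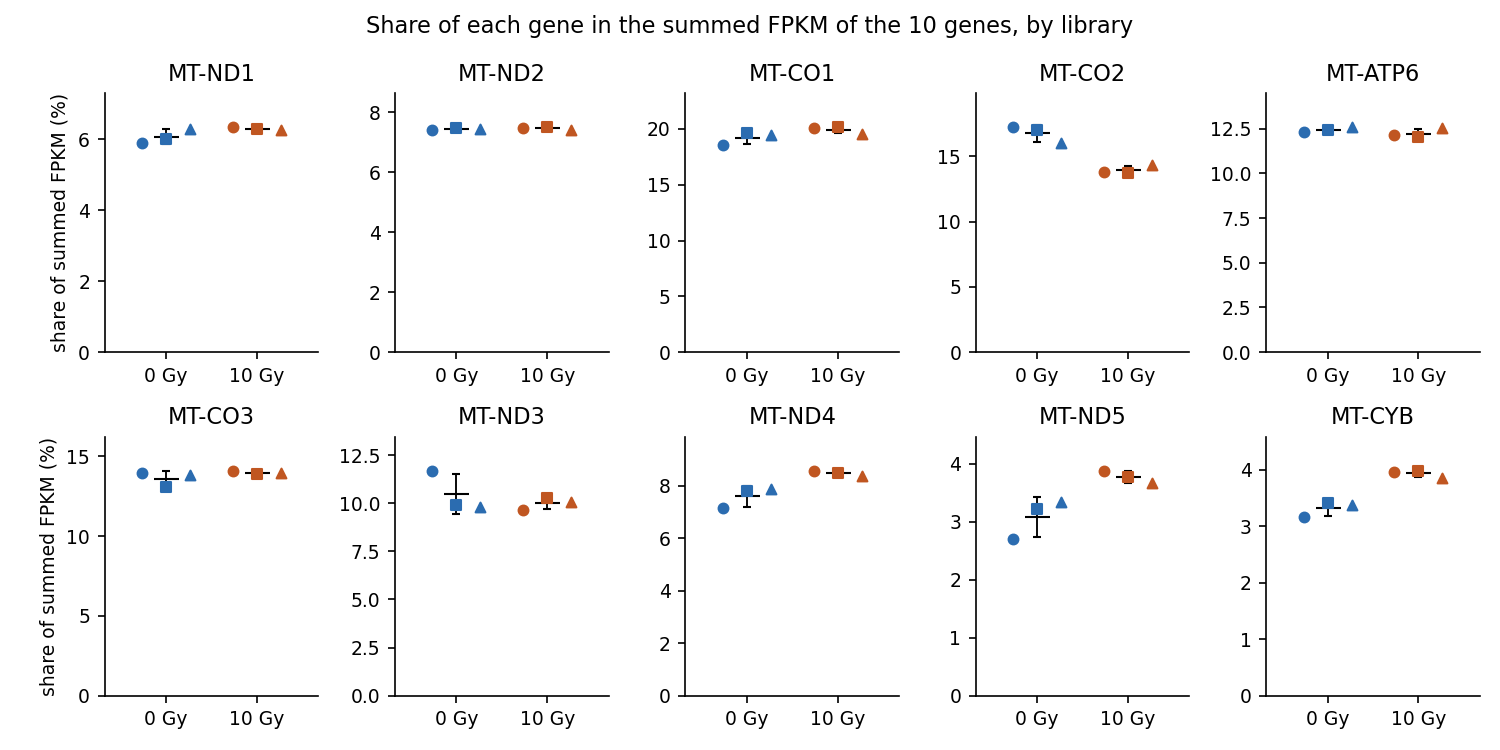
Share of each gene in the summed FPKM of the 10 genes, in percent on the vertical axis of each panel, which starts at 0 and has its own scale. Points are libraries at 0 Gy (blue) and 10 Gy (orange), and bars are means with SD. MT-CO2 is lower in all 10 Gy libraries (16.8% and 13.9% on average), MT-ND4, MT-ND5 and MT-CYB are higher in all of them, and the other 6 overlap.

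Pairs of genes were compared without any sum, with the pairs chosen after the values were seen. MT-CO2 was 0.930, 0.869 and 0.823 times the level of MT-CO1 at 0 Gy and 0.688, 0.679 and 0.731 times at 10 Gy. MT-CO2 and MT-ATP6 are near in length, at 684 and 681 bases, and lie close to each other on the chromosome. The ratio of MT-CO2 to MT-ATP6 was 1.40, 1.37 and 1.28 at 0 Gy and 1.14, 1.14 and 1.14 at 10 Gy. Every irradiated library was thus below every unirradiated one in both ratios, which restate the lower level and share of MT-CO2 and carry no test. The ratio of MT-CYB to MT-ND5 overlapped between doses.

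The changes were ordered by gene length more than by position. Over the 10 genes, the log2 change had a Spearman rho of 0.88 with gene length, 0.48 with order along the chromosome and −0.59 with the level at 0 Gy. The 10 genes share the same libraries, and length, level and function go together among them, so these values only describe the genes. The shorter genes MT-ND3, MT-ATP6 and MT-CO2 had the lowest log2 changes, and the long MT-ND5, MT-ND4 and MT-CYB, with MT-CO1 an exception, had the highest. Among nuclear rows tested, the median log2 change was −0.00 for 1077 genes under 1000 bases, −0.13 for 1008 genes from 1000 to 2000 bases, −0.09 for 3032 genes from 2000 to 4000 bases and −0.02 for 6975 longer genes. The part of gene length in the differences between the 10 genes was not tested.

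The other rows of the chromosome moved in different directions. MT-RNR2, the large ribosomal RNA, was at 1470, 1768 and 1625 FPKM at 0 Gy and at 1138, 1206 and 1473 FPKM at 10 Gy, and fell by 0.35 on the log2 scale (limma adjusted p = 0.0436), although the groups overlapped by the margin between 1470 and 1473 FPKM. Its call was lost with TPM (adjusted p = 0.127), with no filter (0.243), without 0 Gy replicate 2 (0.12) or 3 (0.0955) and without 10 Gy replicate 1 (0.142) or 2 (0.135). MT-RNR1, the small ribosomal RNA, lies before it on the same strand with MT-TV between, and had a log2 change of 0.03 (adjusted p = 0.800, limma). Neither carries a long poly(A) tail, so a library from polyadenylated RNA holds only part of them.

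MT-ATP8 shares 46 bases with MT-ATP6, and MT-ND4L shares 7 bases with MT-ND4, each pair being translated from 1 messenger RNA. The log2 changes of MT-ATP8 and MT-ATP6 were close, at −0.26 and −0.24, and so were those of MT-ND4L and MT-ND4, at −0.09 and −0.06. In level MT-ATP8 was far below MT-ATP6, with 104 FPKM at 0 Gy against 2465 FPKM, from 313 to 533 reads per library. How reads that touch both genes were counted is not given in the sources used here, so the level of MT-ATP8 is uncertain. MT-ND6, the 1 protein gene of the minus strand, had a log2 change of −0.15 (adjusted p = 0.311, limma).

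Transfer RNA genes are 59 to 75 bases long and their mature RNAs are not polyadenylated. Of the 14 on the plus strand, all were tested, 2 were called higher and 0 lower, with a median log2 change of 0.23. Of the 8 on the minus strand, 7 were tested, 0 were called higher and 3 lower, with a median log2 change of −0.24. Among all rows tested, 11.9% were called higher and 23.7% lower. Some of these transfer RNA rows held few reads, such as 1 to 4 per library for MT-TF and 0 to 3 for MT-TA. Both medians are therefore uncertain. On the minus strand, MT-TQ, MT-TA and MT-TE had log2 changes of 0.44, 0.53 and 0.45 and MT-TY of −0.24, and none was called. MT-TC was at 801, 781 and 758 FPKM at 0 Gy and 419, 437 and 494 FPKM at 10 Gy, and fell by 0.79 on the log2 scale (limma adjusted p = 0.000593).

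MT-TN, which lies beside it, went from 605, 626 and 598 FPKM to 379, 395 and 442 FPKM, and fell by 0.59 on the log2 scale (limma adjusted p = 0.000997). MT-TP went from 285, 303 and 315 FPKM to 210, 207 and 213 FPKM and fell by 0.52 (limma adjusted p = 0.00062). On the plus strand, MT-TH, which follows MT-ND4 directly, went from 70.0, 99.0 and 111 FPKM to 128, 141 and 155 FPKM, a log2 rise of 0.62 (limma adjusted p = 0.023). MT-TR, between MT-ND3 and MT-ND4L, rose by 0.58 on the log2 scale (limma adjusted p = 0.033). Over both doses MT-TR held between 22 and 72 reads per library. None of these 5 genes had overlapping groups. MT-TC, MT-TN and MT-TP were called in all alternatives that tested them. The call of MT-TH was lost without 10 Gy replicate 2 (adjusted p = 0.0677) or 3 (0.0701), and that of MT-TR without 0 Gy replicate 1 (0.0914) or 2 (0.0606) and without 10 Gy replicate 1 (0.101) or 2 (0.107), and both were lost with no filter (0.1 and 0.129) and with robust eBayes (0.0563 and 0.0775). Whether reads were counted by strand is not given in the sources used here, so reads of a minus-strand gene and of the precursor that runs opposite to it cannot be told apart.

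**Figure D3:**
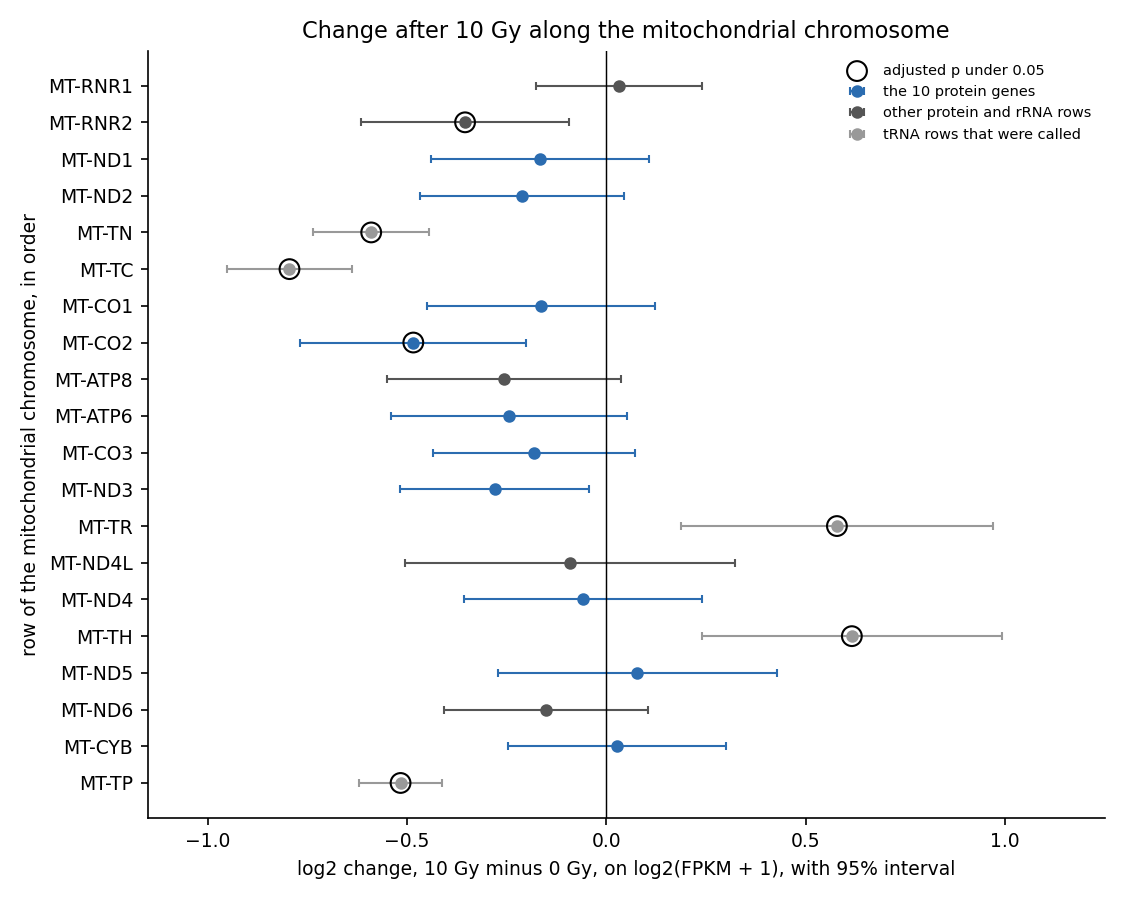
Log2 change from 0 Gy to 10 Gy on the log2(FPKM + 1) scale with its 95% interval, for the 10 genes (blue), the other protein and ribosomal RNA rows (dark grey) and the called transfer RNA rows (light grey), in order along the chromosome. Rings mark adjusted p under 0.05. Among the blue points MT-CO2 alone is ringed, at −0.48, and the points run up to 0.08 at MT-ND5.

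The nuclear genome holds many old copies of these genes, and a copy that is nearly identical can take or give reads. The most abundant copies were MTATP6P1, MTND2P28 and MTCO1P12, all on chromosome 1. MTATP6P1 is 98.5% identical to MT-ATP6 over 681 bases, with no identical run longer than 141 bases. Its level was 150 ± 14.4 FPKM at 0 Gy and 128 ± 24.2 FPKM at 10 Gy (SD, n = 3 each), and its reads were 6.11% of those of MT-ATP6. MTND2P28 is 98.4% identical to MT-ND2 and held 6.48% of its reads. MTCO1P12 is 98.7% identical to MT-CO1 and held 0.678% of its reads. The log2 changes of MTATP6P1, MTND2P28 and MTCO1P12 were −0.24, −0.13 and −0.13, and none was called (limma adjusted p = 0.194, 0.471 and 0.245). For each of the other 7 genes, MT-CO2 included, the most abundant copy had a mean under 1 FPKM and 2 to 29 reads over all libraries. Values of MT-ATP6 and MT-ND2 are therefore the more uncertain ones.

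Most subunits of the same complexes come from nuclear genes. Of 71 nuclear subunits of complexes I, III, IV and V that were tested, 34 were called lower (47.9%, against 23.7% of all rows tested) and 0 higher. Their median log2 change was −0.16 and their median length was 2322 bases. Among nuclear rows tested, 34.0% of those from 1000 to 2000 bases and 32.0% of those from 2000 to 4000 bases were called lower. With a minimum of 5 FPKM 40 of 68 subunits were called lower (58.8%, against 37.6% of all rows tested). Without 10 Gy replicate 1 the number of subunits called lower was 16, and without 10 Gy replicate 2 it was 13. In those fits 15.2% and 14.9% of all rows tested were called lower. With TPM, which moved the median of all rows by 0.107, 8 were called lower and 1 higher with a median of −0.04, where 8.84% of all rows tested were called lower. Of all calls 33.4% were higher as deposited, 74.5% with TPM and 70.9% with TPM set without the mitochondrial rows. The direction of a change smaller than that shift depends on the scaling.

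By complex, 19 of 35 tested nuclear subunits of complex I were lower, 5 of 9 of complex III, 4 of 11 of complex IV and 6 of 16 of complex V. The shares were 54.3, 55.6, 36.4 and 37.5%, against 23.7% of all rows tested. Without 10 Gy replicate 1 the numbers lower were 10 for complex I, 1 for complex III and 1 for complex IV, where 15.2% of all rows tested were lower. Without 10 Gy replicate 2 they were 7, 1 and 1, where 14.9% of all rows were. For complex IV the number was 2 without 0 Gy replicate 1 or 2, where 21.2% and 21.5% of all rows were lower. For complex I, NDUFS6 had a log2 change of −0.32 and NDUFB2 of −0.30. For complex III, CYC1, the cytochrome c1 that works beside cytochrome b, was at 146, 140 and 144 FPKM at 0 Gy and 118, 113 and 119 FPKM at 10 Gy, and fell by 0.30 on the log2 scale (limma adjusted p = 0.0015). UQCR10 fell by 0.26, with a call that was lost without 10 Gy replicate 1 (adjusted p = 0.0539) or 2 (0.056) and with TPM (0.0621).

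In complex IV, COX6B1 went from 142, 132 and 124 FPKM to 111, 107 and 115 FPKM and fell by 0.26 on the log2 scale (limma adjusted p = 0.0107). COX8A fell by 0.24, and its call was lost without 0 Gy replicate 2 (adjusted p = 0.0537), without 10 Gy replicate 1 (0.0554), 2 (0.078) or 3 (0.0603) and with TPM (0.135). These subunits sit around the core that MT-CO1, MT-CO2 and MT-CO3 form. In complex V, ATP5ME fell by 0.57 and ATP5MC1, one of the genes for the rotor ring that turns against the MT-ATP6 product, fell by 0.44 (limma adjusted p = 0.0017 and 0.0042). Their values were 21.2, 18.3 and 17.6 FPKM against 11.7, 12.6 and 13.0 FPKM for ATP5ME, and 59.7, 52.1 and 49.1 FPKM against 40.9, 37.5 and 39.4 FPKM for ATP5MC1. Complex II, which has no mitochondrially encoded subunit, had 2 of 4 lower, beside 23.7% of all rows tested. These were SDHD at −0.19 and SDHA at −0.18, and neither was called with TPM (adjusted p = 0.197 and 0.233). Without 10 Gy replicate 2 SDHA was not called (0.0536). With TPM 1 of the 4 complex II genes was called higher and 0 lower. Of 36 assembly factors tested, 15 were lower (41.7%) and 0 higher, against 23.7% and 11.9% of all rows tested. UQCC3 was at −0.56 and NDUFAF4 at −0.54. The number of assembly factors lower was 9 without 10 Gy replicate 1, where 15.2% of all rows tested were. With TPM 9 of them were lower and 2 higher, with a median log2 change of 0.002. Of all 12139 rows tested with TPM, 1073 were called lower and 3137 higher.

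Genes that make mitochondrial RNA showed small differences. Of 8 in the list for mitochondrial transcription, 3 were called lower and 0 higher, where 23.7% of all rows tested were called lower, with a median log2 change of −0.12. POLRMT, the mitochondrial RNA polymerase, was at 18.2, 15.9 and 17.3 FPKM at 0 Gy and 14.9, 15.2 and 15.5 FPKM at 10 Gy, a log2 change of −0.16 (limma adjusted p = 0.0477). TFAM, which packs mitochondrial DNA and starts its transcription, was at 25.5, 27.3 and 25.8 FPKM and at 23.4, 23.6 and 23.4 FPKM, a log2 change of −0.15 (limma adjusted p = 0.0139). With TPM none of the 8 was called lower, where 8.84% of all rows tested were, and POLRMT and TFAM were at −0.04 and −0.03. The call of TFAM was also lost without 10 Gy replicate 1 (adjusted p = 0.0539), and that of POLRMT was lost without each library but 0 Gy replicate 2 (0.0824 to 0.139). The number called lower was 1 with median-of-ratios scaling, and also 1 without any one of 0 Gy replicate 3 and 10 Gy replicates 1, 2 and 3. In these fits 14.9 to 22.7% of all rows tested were called lower.

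Of 10 genes for replication of mitochondrial DNA, 6 were lower and 1 higher, beside 23.7% lower and 11.9% higher among all rows tested. SSBP1, which coats single-stranded mitochondrial DNA, fell by 0.27 on the log2 scale, DNA2 fell by 0.26, and POLG2, the accessory subunit of the mitochondrial DNA polymerase, rose by 0.16, with a call that was lost without 10 Gy replicate 1, 2 or 3 (adjusted p = 0.0504, 0.0906 and 0.0745). The number called lower was 3 without 10 Gy replicate 1, 2 without 10 Gy replicate 2 and 2 with TPM. In those fits 15.2%, 14.9% and 8.84% of all rows tested were called lower. Of 7 nuclear regulators tested, 4 were lower and 0 higher. Among these, GABPB1 and GABPA, the subunits of a factor that binds promoters of many respiratory genes, fell by 0.39 and 0.33.

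Of 19 genes for processing and turnover of mitochondrial RNA, 6 were lower and 0 higher, with a median log2 change of −0.09, where 23.7% of all rows tested were lower. TRMT10C, part of the enzyme that cuts the 5′ ends of mitochondrial transfer RNAs, fell by 0.28 (limma adjusted p = 0.0072), and TBRG4 fell by 0.27. LRPPRC and SLIRP, which bind and stabilise mitochondrial messenger RNAs as a pair, were not called, with log2 changes of −0.05 and −0.20 (limma adjusted p = 0.234 and 0.115). Without 0 Gy replicate 2 SLIRP was called (adjusted p = 0.0127). With TPM 2 genes of this list were called lower and 4 higher, where 1073 of all 12139 rows tested were called lower and 3137 higher. Of 13 translation and insertion factors, 6 were lower and 1 higher, read against the same 23.7% and 11.9%. TACO1, an activator of translation of the MT-CO1 messenger RNA, fell by 0.34, MTIF3 fell by 0.34, and MTRF1, a release factor, rose by 0.29. The call of MTRF1 was lost without each library but 10 Gy replicate 1 (adjusted p = 0.0632 to 0.118). The number called lower in this list was 3 without 10 Gy replicate 1 and 3 without 10 Gy replicate 2. In those fits 15.2% and 14.9% of all rows tested were called lower. With TPM 2 genes of the translation list were called lower and 2 higher, with a median log2 change of −0.003. These are read against the same 1073 lower and 3137 higher of 12139 rows.

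**Figure D4:**
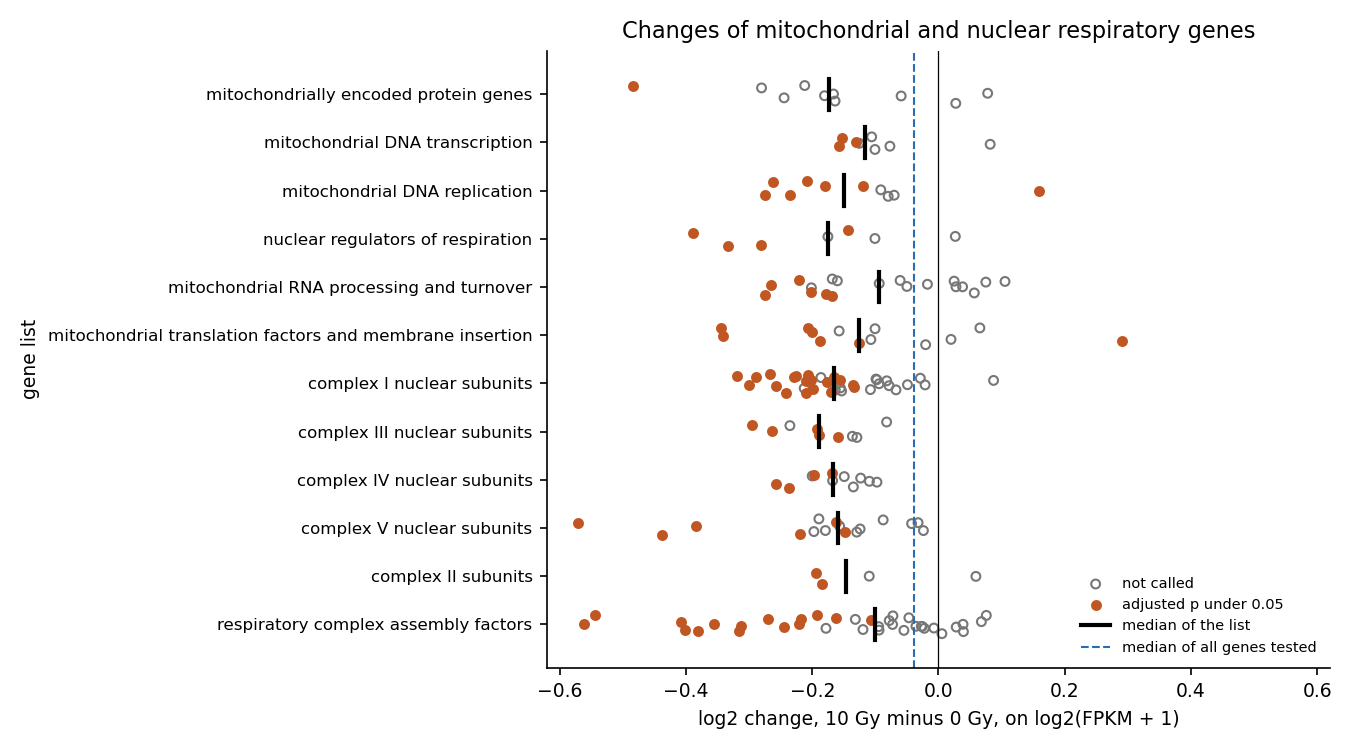
Log2 change from 0 Gy to 10 Gy on the log2(FPKM + 1) scale, 1 point per tested gene, for the 10 mitochondrially encoded genes in the top row and 11 lists of nuclear genes below it. Filled points had an adjusted p under 0.05, black bars are list medians and the dashed line is the median of all rows tested, −0.04. The medians of the 10 genes (−0.17) and of all 11 nuclear lists lie left of that line, and 1 of the 10 top points is filled.

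The 10 genes were summarised by 1 profile over the libraries, from which MT-ND3, flat at 0 Gy, departs. The mean of their log2(FPKM + 1) was 10.53, 10.80 and 10.81 at 0 Gy and 10.43, 10.45 and 10.76 at 10 Gy, so 0 Gy replicate 1 lay near 10 Gy replicates 1 and 2, and 10 Gy replicate 3 lay near the other unirradiated libraries. The 5 nuclear protein-coding genes whose log2 levels were most like this mean over the 6 libraries were THSD4 (Pearson r = 0.984), WHAMM (0.977), TRIM14 (0.973), PICALM (0.972) and PDZD8 (0.964). They were found by a search over all rows tested, and the correlations are given as a description. THSD4 was at 2.28, 2.62 and 2.55 FPKM at 0 Gy and 2.13, 2.12 and 2.46 FPKM at 10 Gy, and PICALM, a clathrin assembly protein, was at 43.1, 44.6 and 45.1 FPKM and at 41.3, 41.4 and 44.4 FPKM. None of these 5 was called between doses.

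Reads on genes numbered 15643641 to 28861781 per library. Of the markers of this basal-like, mesenchymal line, VIM was at 301 FPKM, CD44 at 78.6 FPKM and EGFR at 29.8 FPKM at 0 Gy. ERBB3 (0.426 FPKM), CDH1 (0.324 FPKM) and ESR1 (0.00872 FPKM), markers of luminal or epithelial breast cells, were near 0, and PGR was listed at 0. The libraries that stood apart in the 10 genes, 0 Gy replicate 1 and 10 Gy replicate 3, held 21928560 and 21065258 reads, within the range of the other libraries.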

How the data were processed

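RNA-sequencing values of 6 libraries, 3 at 0 Gy and 3 at 10 Gy, were grouped by the treatment in the labels. The authors deposited FPKM values per gene with gene lengths, made by their sequencing provider from paired-end reads of polyA libraries. The submitters' processing notes name HISAT2 and GRCh38, and the counting program and its strand setting are not given in the sources used here. Multiplying FPKM by length and by each library's implied depth gave whole reads, to within 0.01 read, for 100% of values above 0. That depth was 0.973, 0.983 and 0.991 times the recovered reads at 0 Gy and 1.04, 1.04 and 1.03 times at 10 Gy. Every 10 Gy library thus had lower FPKM for the same share of reads. For the 10 genes, the ratio of 10 Gy to 0 Gy was 0.862 in summed FPKM and 0.929 in share of recovered reads. The part of this scaling in the log2 changes was not tested. Recovered reads were used for depth and read shares.

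Doses were compared by limma 3.58.1 under R 4.3.3 (eBayes with an intensity trend, two-sided), using log2(FPKM + 1) over the 12128 rows with a mean of at least 1 FPKM, which understates changes of low genes. The procedure was also run on simulated data in which each gene varied independently between libraries. That run therefore does not cover shifts that genes of a library share. Exact permutation tests (scipy 1.17.1) were used for single values per library.

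The members and lists were chosen with earlier results of these data known, and the lists were written from general knowledge. Named were all 10 genes, other mitochondrial rows, and of each list the 2 largest called rises and falls, together with POLRMT, TFAM, LRPPRC and SLIRP. The most abundant nuclear copy of each gene and the 5 genes of most similar profile were added. Alternatives covered the pseudocount, the filter, 4 scalings, the replicate block, eBayes settings, protein-coding rows alone, each replicate left out, and other bases of the read share. Copies were aligned with Biopython 1.88 under Python 3.11.15, and matplotlib 3.10.9 drew the figures.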

Additional observations from a re-analysis of the deposited data

How the results depend on the processing

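The number of the 10 genes called was 1 as reported and in 10 of the 18 alternatives. It was 0 with no filter on low rows, where 9.2% of all rows tested were called. It was 2 with a minimum of 5 FPKM and 2 with protein-coding rows alone, where 49.7% and 44.7% of all rows tested were called. With 1 replicate left out it ranged from 0 to 3, beside 21.9 to 32.6% of all rows tested. The log2 change of MT-CO2 stayed below 0 in all alternatives, between −0.61 and −0.36. It was called in 11 of 12 alternatives that kept all libraries (adjusted p 0.0064 to 0.244, limma) and in 2 of 6 with a replicate left out (0.0087 to 0.0767). Leaving out a replicate moved the number of all rows called, 4317 as reported, to between 2651 and 3975, and without the filter it was 2912. The cause of these differences was not tested. The difference in the share of reads on the 10 genes kept its direction in all 9 alternatives, and with a replicate left out it ranged from −0.262 to −0.0644 points.

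Libraries with the same replicate number did not deviate together. Across genes, deviations from the mean of the dose correlated between libraries of the same number at between −0.101 and −0.035, and those of different numbers at 0.094 or less. With the replicate block 3503 rows were called, MT-CO2 among them (adjusted p = 0.0339, limma). In that fit 1 gene of the transcription list and 2 nuclear subunits of complex IV were called lower, where 19.5% of all rows tested were. POLRMT (0.0724) and MT-TR (0.0566) were not called with the block. With 3 libraries per dose, differences of the size seen in most of the 10 genes are within the spread between libraries. The part of sequencing depth in that spread was not tested.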
